A study of Mus musculus with 18 samples.

Results

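The comparison described here is the effect of a high-fat diet on the liver of mice exposed to PFNA. Its members are the 6 arrays whose titles name PFNA, out of 18 arrays in the series, and they were taken from the titles alone. The 3 high-fat PFNA livers came from male C57BL6 mice that ate a diet with 45% of its energy from fat and with PFNA mixed in. The 3 low-fat PFNA livers came from male C57BL6 mice that ate a diet with 10% of its energy from fat, also with PFNA mixed in. All mice ate freely for 12 weeks, between 6 and 18 weeks of age, and the labels call the arrays of a group biological replicates. The same diets with PFOS, and the same diets with no compound, gave 4 further groups of 3 arrays. No dose is stated in the labels. The series title asks how diet alters the fatty liver that these compounds induce.

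PFNA (perfluorononanoic acid) is a perfluorinated carboxylic acid that accumulates in the liver. In rodents such acids activate PPARA, a nuclear receptor that switches on the uptake and oxidation of fatty acids, and CAR, a nuclear receptor that switches on drug-metabolising cytochromes P450. A diet rich in fat supplies fatty acids, which are themselves ligands of PPARA, and dietary fat and cholesterol also act on SREBP, the factor that drives cholesterol synthesis. Kupffer cells, the resident macrophages of the liver, lie in the sinusoids beside endothelial cells.

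Each array gave 1 deposited log2 signal for each of 34472 probes, and a difference of 1 on this scale is a doubling. The median signal of the 6 arrays lay between 4.43 and 4.48. Levels near or under that median were not shown to lie above background, because the deposited table holds no detection call. No pair of these arrays shared more than 1.79% of its values, so none was a copy of another. For arrays, their number limits the precision, with 3 arrays a group. The p-values rest on the spread between mice within groups, pooled over all 18 arrays and not over the PFNA livers alone.

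2 of the 6 arrays stood apart, in different ways. High-fat PFNA replicate 3 scored 52.7 on the first principal component of the 6 arrays (31.7% of their variance), where the other 5 arrays lay between -14.4 and -5.6. Its correlation with the others was 0.9827 to 0.9846, against at least 0.9868 among the other 5. Over all 18 arrays it scored 32.4, within the range of the high-fat PFOS livers (27.8 to 38.6) and near low-fat PFOS replicate 3 (32.9). Both arrays thus lay away from the other replicates named by their own labels. The labels were kept as given, and whether libraries were exchanged was not tested, so that the mean of the high-fat PFNA livers holds only if the label of this array does. List medians and the differences that depend on this array are therefore given with and without it.

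Low-fat PFNA replicate 3 read 48 genes at least 1 log2 unit above all 17 other arrays, whereas the other 5 PFNA arrays had 0 or 1 such gene each. The leading genes belong to stratified squamous epithelium and to striated muscle, not to liver. Krt4, a keratin of the lining of the oesophagus and mouth, read 9.52 in this array and at most 4.22 in the other 17. Cnfn (cornifelin, a protein of the cornified envelope) read 9.34, against at most 5.74 elsewhere, and Krt13, the usual partner of Krt4, read 8.09 against at most 4.81. Acta1 (skeletal muscle actin) read 8.12 against at most 5.62, and Pygm (muscle glycogen phosphorylase) read 7.18 against at most 4.87. These genes were picked after their values were seen, and how they came into this library was not tested. The labelled tissue itself was present in all 6 arrays. Alb (albumin) lay between 13.81 and 13.95 and Ttr (transthyretin) between 13.49 and 13.60, and all 9 measured hepatocyte markers had a 95% confidence interval of the diet difference inside -1 to 1.

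No probe passed the test between high-fat and low-fat PFNA livers. With limma's moderated test over 34472 probes and Benjamini-Hochberg adjustment, 0 probes were called at an adjusted p under 0.05 (0%), and the smallest adjusted p was 0.997. An unadjusted p under 0.05 was reached by 654 higher probes (1.9%) and 786 lower probes (2.28%), 1440 in all, where 1724 are expected if nothing differs. Without high-fat PFNA replicate 3 the same counts were 0 called and 1237 at an unadjusted p under 0.05. Without low-fat PFNA replicate 3 they were 0 and 1232. The histogram of p-values was flat, with a dip in its lowest bin.

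**Figure D1:**
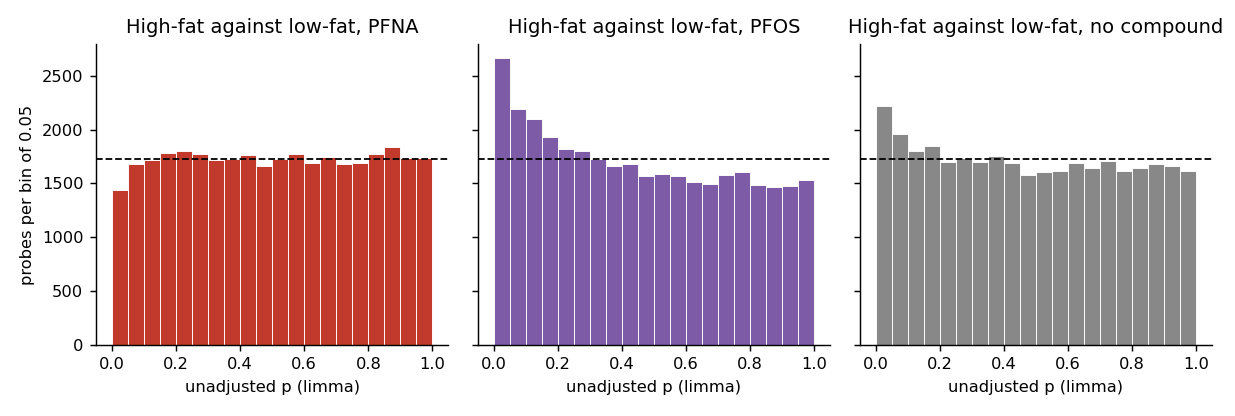
Number of probes per bin of unadjusted limma p for the high-fat minus low-fat difference in PFNA livers (red), PFOS livers (purple) and livers without compound (grey), with the even distribution over 20 bins as a dashed line. The lowest bin holds 1440 probes under PFNA, 2664 under PFOS and 2222 without compound, against 1724 for an even distribution.

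The size of difference that the 6 arrays could still hide was limited. The half-width of the 95% confidence interval had a median of 0.359 log2 units over all probes and of 0.31 over the 9414 probes with a mean signal of at least 6. For 33048 probes (95.9%) the whole interval lay between -1 and 1, so that a doubling or halving was outside it. A difference of at least 1 in either direction was measured for 37 probes. The intervals rest on the spread pooled over all 6 groups, so arrays outside the PFNA groups also set their width. Over the 7692 genes with a mean of at least 6, the median standard deviation was 0.165 in high-fat PFNA livers and 0.102 in low-fat PFNA livers. A standard deviation over 1 was seen for 31 genes in high-fat PFNA and 6 in low-fat PFNA livers. The counts were 67 in low-fat PFOS and 23 in high-fat PFOS livers. Without compound they were 12 in high-fat and 7 in low-fat livers.

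Macrophage genes mostly read lower in high-fat than in low-fat PFNA livers, without a call. All 3 high-fat PFNA arrays read above all 3 low-fat PFNA arrays for 1532 probes (4.44%) and below them for 1735 probes (5.03%). Among the Kupffer cell and macrophage markers, 7 of 20 read below and 2 of 20 above in this sense, and 16 of 20 had a negative difference, with a median of -0.34, against a median of -0.01 over all probes. None of the 20 was called. The 7 were Timd4, Vsig4 and Clec4f, which mark resident Kupffer cells, Csf1r, the receptor for the growth factor that macrophages need, C1qa and C1qc, chains of complement C1q, and Adgre1, a surface receptor that marks mouse macrophages. The 2 above were Ccr2, the chemokine receptor of recruited monocytes, and Trem2, a lipid-sensing receptor of macrophages, both at low signal.

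Csf1r read 7.89, 8.47 and 7.70 in high-fat PFNA livers, against 8.77, 8.61 and 8.69 in low-fat PFNA livers. The means were 8.02 ± 0.40 and 8.69 ± 0.08 (SD, n = 3 each), a difference of -0.67 (standard error 0.30), which is 1.59-fold. The groups did not overlap, but high-fat replicate 2 lay close to the low-fat arrays, and the adjusted p from limma was 0.997. Timd4, a phosphatidylserine receptor with which Kupffer cells take up dying cells, read 6.10, 6.15 and 6.08 in high-fat PFNA livers, against 6.64, 6.60 and 6.85 in low-fat PFNA livers. Its 3 high-fat arrays lay close together and below all low-fat arrays, and the difference was -0.59 (95% confidence interval -1.27 to 0.10, limma, all 18 arrays). Ccr2 read 4.16, 4.43 and 4.30 in high-fat PFNA livers, against 4.03, 4.04 and 4.09 in low-fat PFNA livers, all near the median signal of the arrays.

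The naming rule gave 12 genes for the lower direction, of which Csf1r is also a member of the macrophage list. The rule itself required groups that do not overlap, so these genes are a description and add no support to the list. The list was chosen with earlier results of these data known, so its counts are a description too. Siglec1 (sialoadhesin, CD169) read 6.37, 6.44 and 5.99 in high-fat PFNA livers, against 7.0, 6.88 and 6.99 in low-fat PFNA livers. Folr2, a folate receptor of tissue macrophages, read 7.18, 7.59 and 7.51 in high-fat PFNA livers, against 8.11, 7.97 and 8.05 in low-fat PFNA livers. Hmox1 (heme oxygenase 1), which Kupffer cells use to break down heme from old red cells, read 6.04, 6.80 and 6.42 in high-fat PFNA livers, against 7.0, 7.01 and 7.16 in low-fat PFNA livers. Fcer1g, the shared signalling chain of Fc receptors, and Cfp (properdin, made by myeloid cells) had differences of -0.63 and -0.66. Fabp7, a fatty acid binding protein, and Msn (moesin, which links the membrane to actin) had -0.68 and -0.62.

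The macrophage pattern did not rest on either array that stood apart. Without high-fat PFNA replicate 3 the list's median was -0.33. Of its 20 members 7 lay below and 2 above, where 8.97% of all probes lay below and 9.29% above. Without low-fat PFNA replicate 3 the median was -0.34. Then 8 of 20 lay below and 3 above, where 9.49% of all probes lay below and 2912 of 34472 above. Marco, a scavenger receptor and the member with the largest difference (-0.78), did depend on that array: it read 6.39, 5.91 and 5.60 in high-fat PFNA livers, against 6.34, 6.25 and 7.66 in low-fat PFNA livers, and the difference was -0.33 without low-fat replicate 3. In whole liver, fewer cells of a type and less RNA per cell cannot be told apart.

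**Figure D2:**
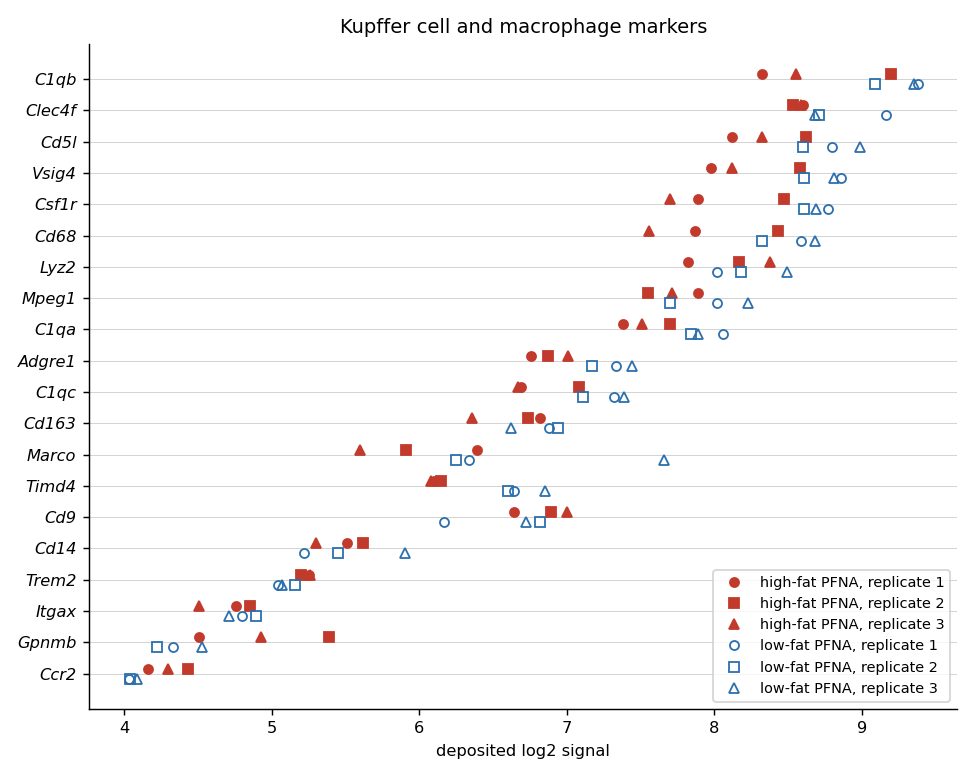
Deposited log2 signal (horizontal axis) of the 20 Kupffer cell and macrophage markers in the 3 high-fat PFNA arrays (filled red, upper row of each gene) and the 3 low-fat PFNA arrays (open blue, lower row). The red points of Timd4, Csf1r, Vsig4, Clec4f, Adgre1, C1qa and C1qc lie left of all blue points, and those of Ccr2 and Trem2 lie right of them.

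Sinusoidal endothelial and interferon-stimulated genes showed the same sign, also without a call. Of the 13 endothelial markers 12 had a negative difference (median -0.21), and 2 read below without overlap, where 5.03% of all probes did. Their array medians overlapped between the diets. Relative to the low-fat PFNA mean they were -0.40, 0.04 and -0.21 in high-fat PFNA arrays, against -0.02, 0.03 and -0.03 in low-fat PFNA arrays. Lyve1, a hyaluronan receptor of sinusoidal endothelium, read 8.10, 8.73 and 8.40 in high-fat PFNA livers, against 8.78, 8.98 and 8.97 in low-fat PFNA livers. Clec4g, a lectin of the same cells, had -0.30. Of the 22 interferon-stimulated genes 21 had a negative difference (median -0.28). Without overlap 3 read below and 1 above, where 5.03% and 4.44% of all probes did. Their array medians also overlapped, with -0.08, -0.36 and -0.38 in high-fat PFNA arrays, against 0.16, -0.28 and 0.08 in low-fat PFNA arrays. Gbp3, a guanylate-binding protein, read 5.19, 4.74 and 4.91 in high-fat PFNA livers, against 5.64, 5.28 and 5.77 in low-fat PFNA livers. The exception was Mx1 (0.37), which lay between 2.74 and 3.38 in the 6 arrays and so below their median signal. Lymphocyte markers had a median of -0.14 over 15 genes. Neutrophil, cholangiocyte, adipocyte, exocrine pancreas, and stellate cell and fibrosis markers had medians between -0.05 and 0.07, and between -0.10 and 0.08 without high-fat replicate 3. With dim probes filtered out, the medians were 0.173 for cholangiocyte, -0.315 for exocrine pancreas and -0.045 for lymphocyte markers.

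The gene with the smallest p among those that the rule named was Sgsm3, a regulator of small GTPases. It read 5.39, 5.27 and 5.50 in high-fat PFNA livers, against 6.06, 5.98 and 6.02 in low-fat PFNA livers. The difference was -0.63 (standard error 0.155, limma adjusted p = 0.997), and it was -0.12 without compound. In the other direction the rule found 3 genes. Tc2n, a C2-domain protein, read 6.28, 6.55 and 6.87 in high-fat PFNA livers, against 5.61, 5.89 and 5.93 in low-fat PFNA livers. Adam11, a catalytically inactive ADAM protein best known from neurons, had 7.73, 7.31 and 7.71 in high-fat PFNA livers, against 6.64, 7.28 and 6.57 in low-fat PFNA livers. The third was Acot2, described with the PPARA targets. Among the lower 12, Apol9b, an interferon-inducible apolipoprotein, had a difference of -0.89. Cnfn and Lce3c, both of the cornified envelope, had -1.68 and -0.87, but with low-fat PFNA replicate 3 left out they were -0.43 and -0.31.

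Genes of the PPARA programme had small positive median differences, which were near 0 once high-fat PFNA replicate 3 was set aside, and none was called. Cyp4a14, a fatty acid omega-hydroxylase and a strong PPARA target, read 13.16, 13.24 and 13.45 in high-fat PFNA livers, against 13.02, 13.21 and 13.19 in low-fat PFNA livers. Its difference was 0.14 (95% confidence interval -0.13 to 0.42). Ppara itself differed by -0.02. Over the 21 measured members of the list of other PPARA targets the median difference was 0.17 with replicate 3 and 0.00 without it. Peroxisomal fatty acid oxidation (16 genes) had 0.20 and 0.01, mitochondrial fatty acid oxidation (16 genes) had 0.14 and 0.00, and fatty acid uptake and binding (13 genes) had 0.39 and -0.03.

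Acot2, a mitochondrial acyl-CoA thioesterase under PPARA control, read 11.15, 11.30 and 12.86 in high-fat PFNA livers, against 10.43, 10.95 and 11.10 in low-fat PFNA livers. The groups did not overlap, and the difference was 0.94 (standard error 0.43), or 0.40 without replicate 3. Ppargc1a, which coactivates PPARA and genes of mitochondrial biogenesis, read 7.35, 7.41 and 7.06 in high-fat PFNA livers, against 6.40, 6.99 and 6.93 in low-fat PFNA livers. Its difference was 0.50, and it was 0.61 without replicate 3, so here the array that stood apart was the lowest of its group. Cyp4a31 had 11.11, 10.04 and 12.25 in high-fat PFNA livers, against 9.98, 10.26 and 10.17 in low-fat PFNA livers, and its groups overlapped.

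High-fat PFNA replicate 3 lay far from the other high-fat PFNA arrays in single genes as well. The rule took the 10 genes in which it lay farthest above both other high-fat PFNA arrays and the 10 in which it lay farthest below. Cidea, a lipid droplet protein that enlarges droplets, read 4.71, 5.34 and 10.58 in high-fat PFNA livers, against 4.45, 4.47 and 5.13 in low-fat PFNA livers. Pdk4, the kinase that shuts pyruvate out of the mitochondrial oxidation pathway, read 7.24, 6.88 and 10.68 in high-fat PFNA livers, against 7.20, 6.50 and 7.83 in low-fat PFNA livers. The first 2 high-fat arrays lay within the low-fat range for Pdk4, whereas replicate 2 lay slightly above it for Cidea. Sptlc3, a subunit of the enzyme that begins sphingolipid synthesis, read 4.31, 4.40 and 9.55 in high-fat PFNA livers. Ucp3 (a mitochondrial uncoupling protein), Fabp4 (a fatty acid binding protein of adipocytes and macrophages), Fbp2 (muscle fructose bisphosphatase), Otop1 (a proton channel), Ly6d, Sdcbp2 and Mup6 made up the remainder of the upper 10.

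Transporters and cytochromes P450 made up most of the lower 10. Slco1a4, an uptake transporter for bile acids and drugs, read 8.28, 8.68 and 4.91 in high-fat PFNA livers, against 7.57, 8.58 and 8.52 in low-fat PFNA livers. Cyp2b10, the classic CAR target, read 10.63, 9.75 and 7.70 in high-fat PFNA livers, against 9.44, 10.34 and 9.91 in low-fat PFNA livers. It lay between 3.81 and 4.58 in the 6 livers without compound, so that even the lowest PFNA array stood far above them. The others were Cyp2c53-ps, Hsd3b5, Cyp39a1, Cyp2c55, Cyp4f14, Slco1a1, Mt1 (metallothionein 1) and Kcnk5 (a potassium channel). These values are a description of 1 mouse, chosen for their distance, and no test is attached to them.

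**Figure D3:**
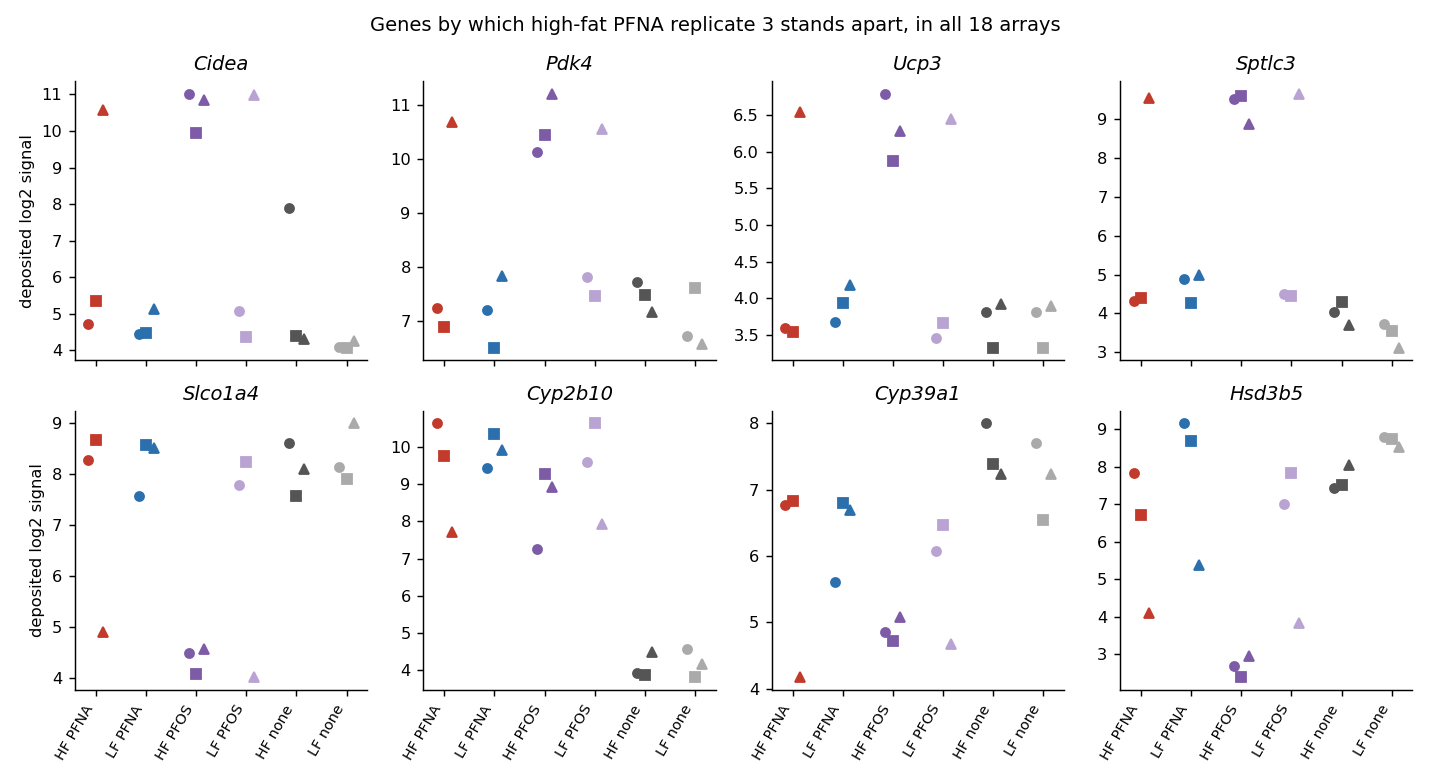
Deposited log2 signal of 8 of the 20 genes in which high-fat PFNA replicate 3 stood apart, in all 18 arrays by group (HF high-fat, LF low-fat, none without compound; circle, square and triangle are replicates 1, 2 and 3). The red triangle lies apart from the red circle and square in all 8 panels and on the same side of them as the 3 high-fat PFOS arrays and the low-fat PFOS triangle.

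The promoters of these genes were searched for AGGTCA on both strands, the half-site to which PPARA, CAR and related nuclear receptors bind as dimers. Of the 20 genes, 15 had a promoter in the RefSeq table that could be used, from 250 bases before to 50 bases after the start, and 2 of these held the letters. Among all 32851 RefSeq promoters, the share that held them was 16.3%. Both are printed because one belongs to a gene that was high and the other to a gene that was low in replicate 3, with the half-sites in capitals (TGACCT is AGGTCA on the other strand). They are RefSeq sequence of build GRCm38.p6, 5′ to 3′ on the strand of the gene: Ucp3 at chr7:100472741-100473040 on the plus strand, with half-sites that begin at -149 and -44 from the start, and Slco1a1 at chr6:141946913-141947212 on the minus strand, with half-sites at -134 and -24.
Ucp3: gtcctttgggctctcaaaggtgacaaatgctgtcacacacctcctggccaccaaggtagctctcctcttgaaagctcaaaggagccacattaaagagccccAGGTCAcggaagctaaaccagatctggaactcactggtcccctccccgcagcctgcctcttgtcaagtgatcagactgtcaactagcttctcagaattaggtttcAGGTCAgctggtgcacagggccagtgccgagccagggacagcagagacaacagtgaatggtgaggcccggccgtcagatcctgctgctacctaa
Slco1a1: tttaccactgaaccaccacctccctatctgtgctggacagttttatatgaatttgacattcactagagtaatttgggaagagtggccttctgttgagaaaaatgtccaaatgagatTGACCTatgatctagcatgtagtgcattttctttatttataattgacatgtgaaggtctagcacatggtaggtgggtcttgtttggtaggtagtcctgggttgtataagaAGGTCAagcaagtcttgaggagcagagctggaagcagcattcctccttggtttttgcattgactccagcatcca
A match in these letters is a description and shows no binding. Ucp3 read 3.60, 3.55 and 6.54 in high-fat PFNA livers, against 3.68, 3.94 and 4.18 in low-fat PFNA livers. Slco1a1 read 9.64, 8.95 and 6.97 in high-fat PFNA livers, against 10.42, 10.23 and 8.92 in low-fat PFNA livers. The first gene was thus low in 5 of the 6 arrays, whereas the second was spread within both diets.

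The same array stood apart across whole gene lists. Relative to the mean of the low-fat PFNA arrays, its median was 1.07 for fatty acid uptake and binding, where high-fat replicates 1 and 2 had 0.01 and -0.01. It was 0.53 for the other PPARA targets, 0.44 for peroxisomal and 0.41 for mitochondrial fatty acid oxidation, and 0.37 for oxidative phosphorylation. On the other side it was -0.53 for the circadian clock, -0.35 for CAR and PXR targets, -0.35 for complement and coagulation and -0.32 for bile acid genes. Of all genes, 20.9% read above and 25.7% read below the other 5 arrays in it. Beside that, 19 of 22 oxidative phosphorylation genes, 12 of 13 uptake genes and 13 of 16 mitochondrial oxidation genes read above the other 5, and 16 of 22 complement and coagulation genes read below them. Macrophage markers did not follow this array: the 3 high-fat PFNA arrays had -0.39, -0.14 and -0.36, against 0.01, -0.12 and 0.12 in the low-fat PFNA arrays. For these markers high-fat replicate 2 lay close to low-fat replicate 2.

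**Figure D4:**
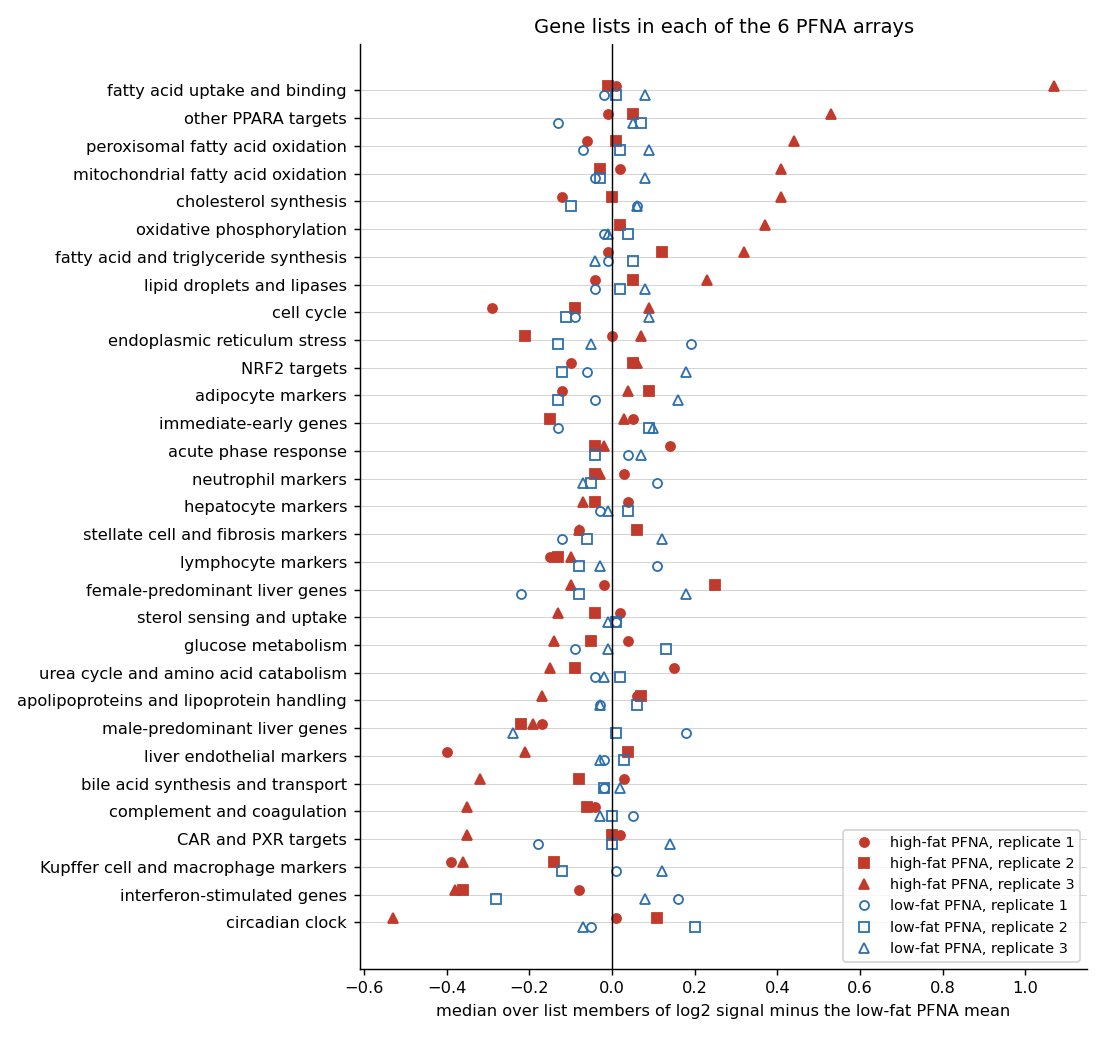
Median over the members of each gene list of the log2 signal minus the low-fat PFNA mean (horizontal axis), for the 3 high-fat PFNA arrays (filled red) and the 3 low-fat PFNA arrays (open blue), ordered by high-fat replicate 3. The red triangle, replicate 3, runs between 1.07 and -0.53, while the red circle and square lie between -0.40 and 0.25.

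Genes of bile acids and of male-type liver had negative medians, without a call. Of 18 measured bile acid genes, 16 had a negative difference (median -0.20) and 5 read below without overlap, where 5.03% of all probes did. Without high-fat PFNA replicate 3, however, the median was -0.06. The 5 included Slc10a1, the main bile acid uptake transporter, and Abcb11, the bile salt export pump, with -0.20 and -0.18. Cyp7a1, the rate-limiting enzyme of bile acid synthesis, read 10.79, 8.51 and 8.03 in high-fat PFNA livers, against 9.03, 9.57 and 10.14 in low-fat PFNA livers. Its spread within each group was larger than the difference between them. Male-predominant genes had a median of -0.21 over 18 genes, with 2 below without overlap, and -0.22 without high-fat replicate 3. Their array medians overlapped, with -0.17, -0.22 and -0.19 in high-fat PFNA arrays, against 0.18, 0.01 and -0.24 in low-fat PFNA arrays. Without low-fat PFNA replicate 3, the lowest of these, the median was -0.33. Then 9 of 18 lay below, where the share of all probes below rose to 9.49%. The diet difference without compound had a median of -0.31 for this list, with 8 of 18 below (1911 of all 34472 probes). Under PFOS it was -0.50, with 6 of 18 below (1824 of 34472). Hsd3b5, a male-specific steroid dehydrogenase, read 7.82, 6.71 and 4.10 in high-fat PFNA livers, against 9.15, 8.67 and 5.38 in low-fat PFNA livers, so both diets held 1 liver far below the others.

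Oxidative phosphorylation genes had a median difference of 0.15 over 22 genes, and 0.01 without replicate 3. With all arrays, 5 read above and 1 below without overlap, where 4.44% and 5.03% of all probes did. Ndufa2, a subunit of complex I, read 8.26, 8.10 and 8.67 in high-fat PFNA livers, against 7.94, 8.08 and 8.0 in low-fat PFNA livers. Fatty acid and triglyceride synthesis had a median of 0.10 over 24 genes, and lipid droplets and lipases 0.13 over 17, which were 0.01 and 0.02 without replicate 3. Scd1, the desaturase that makes oleate, differed by -0.04 (95% confidence interval -0.465 to 0.38), and Fasn (fatty acid synthase) by 0.41 (-0.64 to 1.46). CAR and PXR targets had a median of -0.09 over 27 genes, which turned to 0.02 without replicate 3, and Cyp3a11, the main PXR target, differed by -0.06. The medians of the apolipoproteins, glucose metabolism, the urea cycle, sterol sensing, the AHR targets and the immediate-early genes lay between -0.06 and 0.07, and between -0.05 and 0.03 without replicate 3. The circadian clock had a median of -0.15, which turned to 0.06 without replicate 3. Complement and coagulation had -0.12 with that array and -0.05 without it, the cell cycle -0.07 and -0.17, female-predominant genes 0.03 and 0.10, and the 2 measured erythroid markers -0.22 and -0.13. No member of these lists was called. Of the 549 list members that were measured, 459 had a 95% confidence interval inside -1 to 1.

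Whether the diet difference under PFNA departs from that without compound was tested as the difference of the 2 differences. 0 of 34472 probes were called (0%), and the smallest limma adjusted p was 0.938. The difference was larger under PFNA for 845 probes (2.45%) and smaller for 941 (2.73%) by the unadjusted threshold. Without compound itself 1 probe was called (0.0029%). The PFNA arrays share no array with the livers without compound, so that the 2 differences stand on separate mice.

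Cholesterol synthesis genes had a positive median diet difference in both settings, and no gap between the settings was called. Of the 16 measured genes, 10 had a positive difference under PFNA and 0 were free of overlap under PFNA, whereas 10 read higher on the high-fat diet in all arrays without compound, where 4.84% of all probes did. The median difference was 0.14 under PFNA (-0.09 without replicate 3) and 0.40 without compound. The difference of differences was negative for 16 of 16 genes, with a median of -0.31, where 11390 of 22180 genes in all were negative. An unadjusted p under 0.05 was reached by 4 of the 16, where 2.73% of all probes were lower by that threshold. Sqle, squalene epoxidase, read 4.94, 4.90 and 6.38 in high-fat PFNA livers, against 5.23, 5.15 and 5.33 in low-fat PFNA livers. Without compound it read 6.66, 6.68 and 6.92 in high-fat livers, against 4.91, 5.02 and 4.60 in low-fat livers. The difference was thus 0.17 under PFNA and 1.91 without compound, and the gap of -1.74 (standard error 0.542) had a limma adjusted p of 0.942. Msmo1, which removes methyl groups from the sterol ring, had 0.19 under PFNA and 1.61 without compound.

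The medians of the macrophage, endothelial, interferon and stellate cell lists were negative under PFNA and positive without compound, whereas that of cholangiocyte markers was positive in both (0.03 and 0.29). Macrophage markers had a median of -0.34 under PFNA and 0.31 without compound. The difference of differences was negative for 19 of 20 genes, with a median of -0.62, where 11390 of 22180 genes in all were negative. It had an unadjusted p under 0.05 for 3 of the 20, where 2.73% of all probes were lower by that threshold. The livers without compound were widely spread for macrophage markers. Csf1r read 8.49, 8.20 and 7.39 there in high-fat livers, against 7.40, 7.41 and 8.36 in low-fat livers. Low-fat replicate 3 there lay among the high-fat arrays, and high-fat replicate 3 lay just below the lowest low-fat array. Endothelial markers had medians of -0.21 and 0.15. In the difference of differences 5 of 13 were below at an unadjusted p under 0.05, against the same 2.73%. Interferon-stimulated genes had -0.28 and 0.13, with 5 of 22. Array medians of both lists overlapped between the diets without compound too. Relative to the low-fat PFNA mean, endothelial markers there had -0.12, -0.19 and -0.58 in high-fat arrays, against -0.42, -0.57 and -0.28 in low-fat arrays. Interferon-stimulated genes had 0.09, 0.28 and 0.18, against -0.21, -0.09 and 0.36. Stellate cell and fibrosis markers had -0.05 under PFNA (0.01 without high-fat PFNA replicate 3) and 0.48 without compound. The diet difference under PFOS had the sign of that under PFNA with all arrays in, with medians of -0.24 for macrophage, -0.15 for endothelial, -0.36 for interferon-stimulated, -0.17 for lymphocyte and -0.11 for stellate cell genes. In the other direction, the difference of differences had a median of 0.32 for the other PPARA targets. This stood beside the high values of replicate 3 in that list. An unadjusted p under 0.05 was reached by 4 of 21, where 2.45% of all probes were higher by that threshold.

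Smaller medians under PFNA than without compound also appeared for the acute phase response (0.02 and 0.33), NRF2 targets (-0.01 and 0.37) and endoplasmic reticulum stress (-0.03 and 0.36, and -0.14 under PFNA without replicate 3). Orm3, an acute phase orosomucoid, read 7.53, 5.51 and 6.05 in high-fat PFNA livers, against 7.47, 6.26 and 7.69 in low-fat PFNA livers. Without compound it read 7.03, 7.82 and 7.10 in high-fat livers, against 4.12, 6.01 and 5.44 in low-fat livers. The diets overlapped under PFNA and were apart without compound. Cyp2b9, a female-predominant cytochrome P450 that CAR also induces, read 11.45, 12.01 and 12.16 in high-fat PFNA livers, against 10.76, 11.32 and 11.97 in low-fat PFNA livers. Without compound it read 11.68, 11.52 and 11.96 in high-fat livers, against 7.93, 9.35 and 10.07 in low-fat livers, so that only the low-fat livers without compound were low. Ccnb2 (cyclin B2) had -0.64 under PFNA and 0.76 without compound. Over the 7692 genes with a mean signal of at least 6, the diet differences under PFNA and without compound had a Pearson correlation of 0.018 across genes, and of -0.134 without replicate 3. Genes are not independent replicates, so this is a description.

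**Figure D5:**
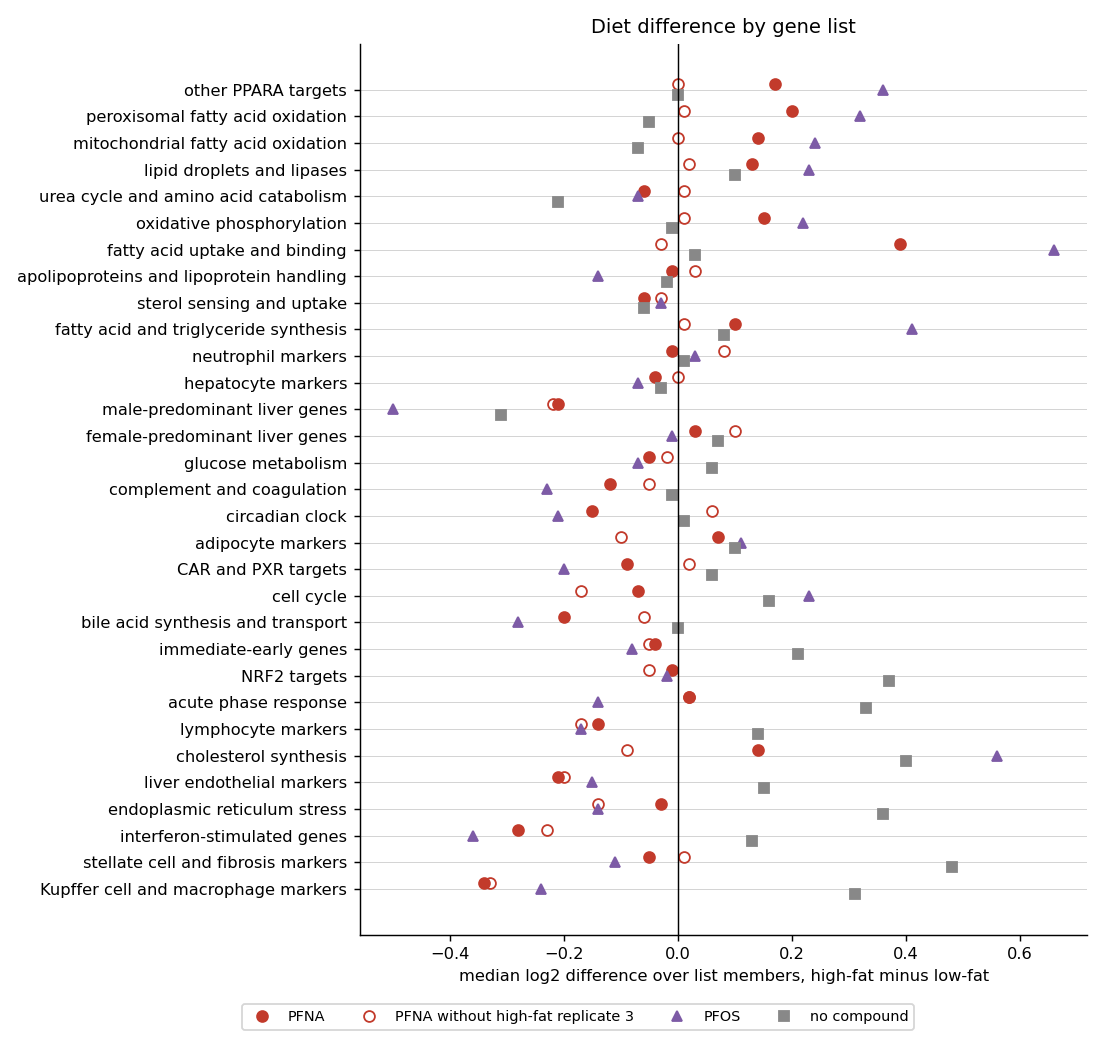
Median log2 difference, high-fat minus low-fat, over the members of each gene list (horizontal axis) in PFNA livers (filled red), PFNA livers without high-fat replicate 3 (open red), PFOS livers (purple) and livers without compound (grey). At the bottom, Kupffer cell and macrophage markers lie at -0.34 under PFNA and 0.31 without compound. Fatty acid uptake lies at 0.39 under PFNA and at -0.03 once replicate 3 is left out.

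PFOS is a perfluorinated sulfonic acid, with a sulfonic acid in the place of the carboxylic acid of PFNA. The diet difference under PFNA minus that under PFOS gave 0 called probes (0%), and the diet difference under PFOS alone gave 0 (0%). Across the 7692 genes the diet differences under PFNA and PFOS had a correlation of 0.704, which dropped to 0.228 without high-fat PFNA replicate 3. With that array and low-fat PFOS replicate 3 both left out, a setting chosen after the data were seen and on their distance from their own groups, the diet difference under PFOS gave 373 higher and 392 lower probes while that under PFNA still gave 0. The difference of differences then gave 9 higher and 22 lower probes. Sptlc3 was among them, with a diet difference of -0.36 under PFNA and 4.88 under PFOS (limma adjusted p of the gap 1.21e-05). Ehhadh, the bifunctional enzyme of peroxisomal fatty acid oxidation, had 0.20 under PFNA and 1.64 under PFOS (0.0249), and Slco1a4 had 0.26 under PFNA and -3.64 under PFOS (0.00653). Sptlc3 and Slco1a4 had been named for the distance of high-fat PFNA replicate 3, the array left out here. High-fat PFNA replicate 3 and low-fat PFOS replicate 3 were both left out because of their values. All counts and adjusted p-values in this setting, that of Ehhadh included, are therefore a description and not a separate test. With all arrays kept, the limma adjusted p of the gap was 0.999 for each of Sptlc3, Ehhadh and Slco1a4.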

How the data were processed

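Liver RNA, extracted with Trizol and labelled with biotin per the labels' protocols, was measured on 18 arrays. Per the submitters' processing notes, the authors used Transcriptome Analysis Console, version not stated; their background correction and normalization are not known here. No label states the logarithm, so log2 signal was inferred as the unit of the deposited values from their range and skew. Of the probes, 23521 had 1 gene symbol, 1814 several and 9137 none; a probe with several symbols named no gene, and the probe with the highest mean stood for a gene. With limma 3.58.1 in R 4.3.3, all 18 arrays entered 1 fit of the 6 group means (12 residual and 5.21 prior degrees of freedom), with Benjamini-Hochberg adjustment within each contrast and a threshold of 0.05. The script was tested on simulated data.

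The 35 lists hold 619 genes, of which 549 were measured and 31 are in more than 1 list. Members and lists were chosen with earlier results of these data known. Since no probe was called, the genes named are those with groups that do not overlap, a difference of at least 0.58 and a mean of at least 6 in the higher group (up to 12 a direction, by p), the 2 members of each list with the largest difference, and the 10 genes farthest above and below in high-fat PFNA replicate 3. Further list members were named to show the programme they belong to. Alternatives were the groups compared alone, quantile normalization, median centring, a filter on dim probes, trend and robust moderation, array weights, the replicate number as a block, the mean over probes and each array left out. No column of per-sample values was left unused (0).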

Additional observations from a re-analysis of the deposited data

How the results depend on the processing

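The diet difference under PFNA gave 0 called probes in each alternative run, and 0 to 0 with each array left out; so did its difference from the diet difference without compound. The calls without compound (0 higher, 1 lower) became 6 and 2 with only the compared groups, 1 and 2 with the mean over probes, 2 lower under quantile normalization, the dim-probe filter and trend with robust moderation, and 0 lower without the 2 arrays that stood apart on the first component; leaving out 1 array at a time gave 0 to 1 higher and 0 to 2 lower. With those 2 arrays left out, the diet difference under PFOS gave 373 higher and 392 lower (0 to 17 and 0 to 16 with 1 array left out), and PFNA minus PFOS gave 9 and 22 (0 to 0 with 1 array left out). Replicate numbers are shared between groups. Same-numbered high-fat and low-fat PFNA arrays had correlations of deviations of 0.05, 0.044 and 0.025, against -0.06 to 0.015 between arrays of unlike number. All were small, and whether same-numbered arrays share more than a number was not tested. With the replicate number as a block, the diet difference under PFNA gave 0 and 0 calls and that without compound 1 and 2.

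None of the 93 named genes was called in any alternative (lowest adjusted p 0.781), and 29 turned their sign in some. With the 2 arrays left out these were Fdps (-0.20), Insig1 (-0.063), Mogat1 (-0.013), Cidec (-0.10), Pdk4 (-0.12), Cyp1a2 (0.02), Slco1a4 (0.26), Angptl8 (0.063), Tm6sf2 (0.17), Ciart (0.003), Cycs (-0.003), Cps1 (0.06), Ecm1 (0.037), Sptlc3 (-0.36), Otop1 (-0.015), Ucp3 (-0.36), Ly6d (-0.093), Sdcbp2 (-0.38), Fabp4 (-0.18), Fbp2 (-0.67), Cyp2c53-ps (0.20), Cyp39a1 (0.43), Cyp2c55 (0.57), Cyp2b10 (0.29), Mt1 (0.36) and Kcnk5 (0.21). Array weights turned Fbp2 (-0.22) and Cyp2c55 (0.11). With 1 array left out at a time the ranges were Angptl8 -0.52 to 0.06, Ciart -0.57 to 0.003, Cidec -0.10 to 1.06, Cps1 -0.24 to 0.06, Creld2 -0.80 to 0.10, Cycs -0.003 to 0.56, Cyp1a2 -0.46 to 0.02, Cyp2b10 -1.17 to 0.29, Cyp2c53-ps -1.94 to 0.20, Cyp2c55 -0.49 to 0.56, Cyp39a1 -0.90 to 0.43, Des -0.94 to 0.13, Ecm1 -0.52 to 0.04, Fabp4 -0.17 to 1.07, Fbp2 -0.67 to 0.41, Fdps -0.20 to 0.70, Insig1 -0.06 to 0.46, Kcnk5 -1.01 to 0.21, Ly6d -0.09 to 1.56, Mogat1 -0.01 to 1.06, Mt1 -0.55 to 0.36, Otop1 -0.01 to 2.17, Pdk4 -0.12 to 1.78, Sdcbp2 -0.38 to 0.91, Slco1a4 -1.63 to 0.26, Sox9 -0.002 to 0.36, Sptlc3 -0.36 to 2.26, Tm6sf2 -0.35 to 0.17, Ucp3 -0.36 to 1.14. Dim probes limit the lists of rarer cells: with the filter on dim probes the medians under PFNA were -0.045 for lymphocyte, 0.173 for cholangiocyte and -0.315 for exocrine pancreas markers.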

Other observations

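Reading genes at least 1 log2 unit above all 17 other arrays was also seen, on a smaller scale than in low-fat PFNA replicate 3 (48 genes), in high-fat replicate 1 without compound (19 genes), high-fat PFOS replicate 1 (14 genes) and low-fat PFOS replicate 2 (9 genes). The other 14 arrays had 0 or 1 such gene each. In low-fat PFNA replicate 3 the list went on, after the genes already named, with Sprr3 (5.97, at most 2.55 elsewhere), Asprv1 (7.69, at most 4.44), Krtdap (7.75, at most 4.54), Tgm3 (7.57, at most 4.98) and Lor (6.82, at most 4.48), all of cornifying or mucosal epithelium, and with Sln (4.95, at most 2.84), the sarcolipin of striated muscle. Desmin (Des), an intermediate filament of muscle and of stellate cells, read 7.29 in this array, and its diet difference was -0.54 with it and 0.13 without it.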
